A study of Oryza sativa with 16 samples.

Results

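The genes described here encode enzymes that make or remove small aldehydes and alcohols in rice: the aldehyde oxidases AO-1, AO-2 and AO-4, the pyruvate decarboxylases PDC1, PDC2 and PDC3, the alcohol dehydrogenase Adh2, the formaldehyde dehydrogenase FALDH and the succinic semialdehyde dehydrogenase SSADH1. They were matched by symbol or synonym in the annotation of the probe sets. The choice of genes was made with earlier results of these data known. All 9 were found, with 13 probe sets, among 17905 annotated genes and 57194 probe sets. Each gene was read through its brightest probe set; AO-4 had 3 further probe sets and PDC2 had 1, which served as a check.

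Leaf RNA of Oryza sativa was hybridised to Affymetrix rice arrays, 1 sample to an array, in 4 groups of 4 arrays. The aromatic bulk combined 6 recombinant inbred lines with strong aroma, and the non-aromatic bulk combined 6 lines without it; the lines come from a cross of Pusa 1121 with Pusa 1342. Pusa 1121, the aromatic parent, and Pusa 1342, the non-aromatic parent, formed the other groups. All plants grew untreated in the field, and healthy leaves were taken 25 days after seedlings were transplanted. Because each bulk is a pool, the spread among its lines cannot be seen, and the labels do not say which parental allele a line carried at the genes described here. The labels call the arrays of a group biological replicates without saying whether they came from separate plants or poolings, so p-values reflect only the variation among these samples, which may be technical.

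Pyruvate decarboxylase turns pyruvate into acetaldehyde, and alcohol dehydrogenase then reduces the acetaldehyde to ethanol; this pair of steps is ethanolic fermentation, which rice uses when roots and seedlings are flooded. Aldehyde oxidases are molybdenum enzymes that oxidise aldehydes to acids, and in Arabidopsis a member of the family makes abscisic acid from abscisic aldehyde. Formaldehyde dehydrogenase removes formaldehyde bound to glutathione, and succinic semialdehyde dehydrogenase closes the GABA shunt in mitochondria by making succinate. The scent of fragrant rice is due mainly to 2-acetyl-1-pyrroline, which builds up when the aldehyde dehydrogenase BADH2 is lost, so other aldehyde enzymes of the leaf are of interest beside it.

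Values are the deposited linear intensities, which have no absolute unit. Differences are on the log2(intensity + 1) scale with the aromatic side minus the non-aromatic side, or a bulk minus its parent. The parent of a bulk here means the one of the same aroma type, although the lines of each bulk descend from both parents. A difference was called when its p-value, adjusted over all 57194 probe sets, was under 0.05. Intensities of different genes were not set against each other, since each probe set has its own response. Every array had the same distribution, with a median intensity of 64.2, so a shift of all genes in a group would not be seen. Of the leaf markers RBCS, CAB2R and RCA were bright in all groups, with means of 22591 to 44835, while RBCS1 was dim at 30.6 to 48.8. Between the parents RBCS was higher in Pusa 1121 (0.44 (adjusted p = 0.000245)) and RCA lower (-0.42 (adjusted p = 9.49e-05)). CAB2R and RBCS1 were not called there, and no leaf marker was called between the bulks. The summed intensity of 9 floral markers was 1500.02 to 1685 in the aromatic bulk and 1992 to 2391 in the non-aromatic bulk, and 1578 to 1919 in Pusa 1121 against 3875 to 4477 in Pusa 1342, where MADS16 alone averaged 3191. That of the root markers LSI1 and LSI2 was 1397 to 1564 in the aromatic bulk and 2428 to 2632 in the non-aromatic bulk, and 947 to 1210.1 in Pusa 1121 and 1406 to 1699 in Pusa 1342. It was almost all LSI1, since LSI2 had group means of 2.60 to 3.77. Summed seed markers, 6 in number, ran from 1411 to 1584 in the aromatic bulk, 1084 to 1421 in the non-aromatic bulk, 1539 to 1849.5 in Pusa 1121 and 1449.8 to 1723 in Pusa 1342. Most of this sum was GLUA2, with group means of 1002 to 1425. Several markers, among them RBCS1, LSI2, MADS13 and RP6, had means below the array median of 64.2 in every group. The part of the markers in the results below was not tested.

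Between the bulks, AO-1, FALDH and PDC1 were higher in the aromatic bulk and PDC2 was lower, while AO-2, AO-4, Adh2, PDC3 and SSADH1 did not pass the test. The 4 genes called are 44.4% of the 9, beside 32.8% of all annotated genes called in this comparison. Higher calls made up 16.5% and lower calls 16.3% of all genes. The arrays of the bulks did not overlap for AO-1, FALDH and PDC2, 3 of the 9, beside 41.4% of all genes. The median difference of the 9 genes was 0.13, beside -0.0050 over all genes, and their median absolute difference of 0.33 equalled that of all genes to 2 decimals. In a fit of the bulks alone only PDC2 of the 9 kept a call, so 1 gene was called in place of 4.

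Between the parents, AO-1, Adh2, FALDH, PDC2 and SSADH1 were higher in Pusa 1121 and AO-2 was lower, while AO-4, PDC1 and PDC3 did not pass. These 6 genes are 66.7% of the 9, beside 45.3% of all annotated genes called, with 22.4% called higher and 22.8% called lower. Arrays of the parents did not overlap for 7 of the 9 genes, the 6 called and AO-4, beside 51.7% of all genes. The median difference was 0.43, beside -0.0080 over all genes, and the median absolute difference was 0.59, beside 0.43. AO-1 and FALDH were called in the same direction in both comparisons, and PDC2 in opposite directions, on its brighter probe set only. Across all genes 21.5% were called in both comparisons and 16.4% in both with the same sign. Fewer cells of a type and less RNA per cell cannot be told apart in any of these leaf samples.

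**Figure D1:**
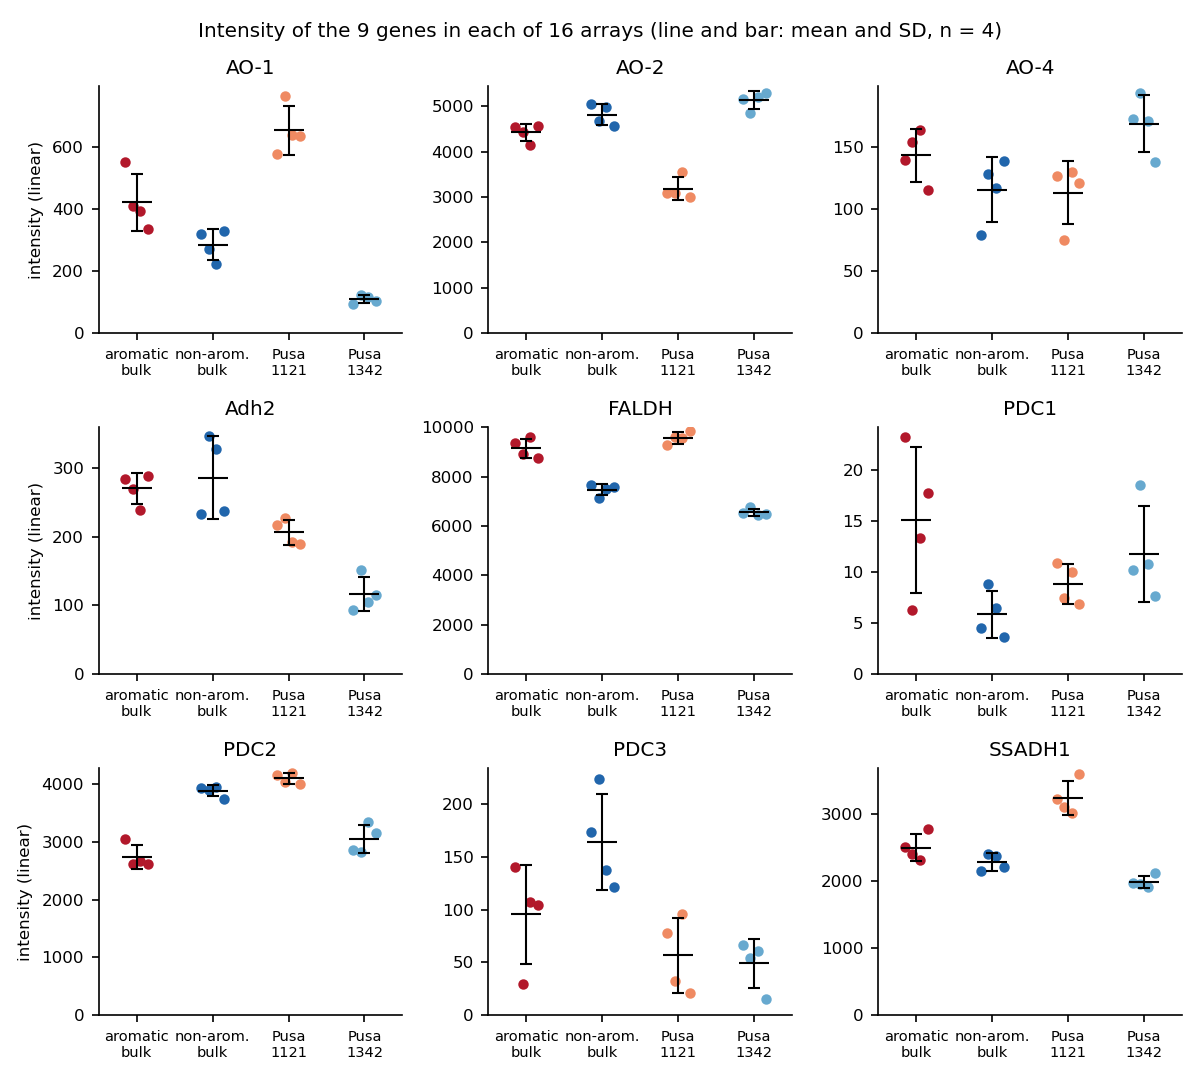
Intensity of each of the 9 genes (linear scale, each panel from 0) in every array of the aromatic bulk, the non-aromatic bulk, Pusa 1121 and Pusa 1342; points are arrays, and the line and bar are the mean and SD (n = 4). AO-1 is highest in Pusa 1121 (653 ± 78.2) and lowest in Pusa 1342 (109 ± 13.3), with both bulks between, and PDC2 is lowest in the aromatic bulk (2741 ± 208).

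PDC2, on chromosome 3, encodes a pyruvate decarboxylase, the enzyme that commits pyruvate to ethanol, and was the only gene of the 9 called lower in the aromatic bulk. Its intensities were 3052, 2625, 2669 and 2619.7 in the aromatic bulk, against 3929.8, 3899.6, 3961 and 3747 in the non-aromatic bulk. All arrays of the aromatic bulk were below all of the non-aromatic bulk, with a difference of -0.51 (SE 0.0789, adjusted p = 0.000404). In the parents PDC2 gave 4162, 4040.1, 4199 and 4002 in Pusa 1121, against 2866, 2829, 3353 and 3161 in Pusa 1342. Here the aromatic side was the higher one, again without overlap, with a difference of 0.43 (SE 0.0789, adjusted p = 0.000822). The parental difference exceeded the bulk difference by 0.93 on the log2 scale (95% interval 0.69 to 1.18, adjusted p = 3.33e-05).

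Against its own parent, PDC2 fell by 0.58 in the aromatic bulk relative to Pusa 1121 (adjusted p = 0.000102), and rose by 0.35 in the non-aromatic bulk relative to Pusa 1342 (adjusted p = 0.00456). The order of the means was Pusa 1121, non-aromatic bulk, Pusa 1342, aromatic bulk. Pusa 1121 and the non-aromatic bulk were not called apart (adjusted p = 0.546), nor were Pusa 1342 and the aromatic bulk (adjusted p = 0.202). The aromatic bulk thus lay below both parents in its mean, but its difference from Pusa 1342, of -0.15, was not called.

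The dimmer probe set of PDC2 gave 449, 381, 369 and 407 in the aromatic bulk, against 491, 599, 653 and 700.2 in the non-aromatic bulk. Its bulks did not overlap either, and the difference of -0.60 (adjusted p = 0.00301) had the same direction as on the brighter probe set. In the parents it averaged 729 ± 89.7 in Pusa 1121 and 698 ± 32.3 in Pusa 1342 (SD, n = 4 each), a difference of 0.06 (adjusted p = 0.82). The lower level in the aromatic bulk was therefore called on both probe sets, and the higher level in Pusa 1121 on the brighter one only. With the probe sets averaged, the parental difference was 0.24 (adjusted p = 0.0622). The rise of the non-aromatic bulk over Pusa 1342 was not called on the dimmer probe set either, which gave -0.20 (adjusted p = 0.28), while its fall in the aromatic bulk against Pusa 1342 was, at -0.80 (adjusted p = 0.00019).

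PDC1, on chromosome 5, encodes another pyruvate decarboxylase and was dim on every array. It had 23.2, 6.31, 13.3 and 17.7 in the aromatic bulk, against 4.55, 8.85, 6.44 and 3.64 in the non-aromatic bulk. Array 2 of the aromatic bulk, at 6.31, lay inside the range of the non-aromatic bulk, so the groups overlapped. The difference was 1.16 (SE 0.360, adjusted p = 0.0382), with a 95% interval of 0.38 to 1.94. Leaving out aromatic bulk array 1, 3 or 4, non-aromatic bulk array 1, 3 or 4, or Pusa 1342 array 3 ended the call (adjusted p from 0.0504 to 0.115), and a pseudocount of 16 brought the difference to 0.49. In the parents PDC1 averaged 8.83 ± 1.95 in Pusa 1121 and 11.8 ± 4.71 in Pusa 1342 (SD, n = 4 each), a difference of -0.33 (adjusted p = 0.597). No pair of neighbours in the order of the groups, aromatic bulk, Pusa 1342, Pusa 1121 and non-aromatic bulk, differed past the threshold.

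PDC3, the pyruvate decarboxylase gene on chromosome 7, had the largest standard error among the brightest probe sets of the 9 genes in the log2 fit, in which the spread is pooled over the groups. Its intensities were 140.2, 29.8, 108 and 104 in the aromatic bulk, against 174, 224, 137 and 122 in the non-aromatic bulk. The bulks overlapped, and the difference of -0.94 (SE 0.597, adjusted p = 0.347) did not pass. Pusa 1121 had 78.0, 32.2, 95.6 and 20.7 and Pusa 1342 had 66.6, 53.9, 60.7 and 15.2, also overlapping, with a difference of 0.14 (adjusted p = 0.913). All arrays of the non-aromatic bulk were above all arrays of both parents, by 1.87 (adjusted p = 0.0358) against Pusa 1342 and by 1.73 (adjusted p = 0.0474) against Pusa 1121. The call against Pusa 1342 was lost without non-aromatic bulk array 1, 2 or 3 or Pusa 1342 array 2 or 4 (adjusted p from 0.0534 to 0.11). The call against Pusa 1121 was not checked by leaving out arrays or under other settings.

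Adh2, on chromosome 11, encodes an alcohol dehydrogenase, which reduces acetaldehyde to ethanol. It gave 285, 269.6, 239 and 289 in the aromatic bulk, against 233, 347, 329 and 237 in the non-aromatic bulk. These ranges overlapped, and the difference of -0.06 (SE 0.165, adjusted p = 0.864) had a 95% interval of -0.42 to 0.29. The parents were apart, with 217, 227, 192 and 190.3 in Pusa 1121, against 93.9, 152, 106 and 115 in Pusa 1342. Every array of Pusa 1121 was above every array of Pusa 1342, by 0.84 (SE 0.165, adjusted p = 0.00142). The parental difference exceeded the bulk difference by 0.90 (adjusted p = 0.0138).

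Both bulks had higher Adh2 than both parents in every array. The non-aromatic bulk exceeded Pusa 1342 by 1.29 (adjusted p = 4.92e-05), or 2.46-fold in the means, and the aromatic bulk exceeded Pusa 1342 by 1.23 (adjusted p = 6.76e-05). Against Pusa 1121 neither bulk was called, at 0.39 (adjusted p = 0.138) for the aromatic and 0.45 (adjusted p = 0.0621) for the non-aromatic bulk. Around the mean of the parents on the log2 scale, the aromatic bulk lay 0.81 and the non-aromatic bulk 0.87 higher, beyond the 0.42 by which Pusa 1121 itself did. ADH1, which lies close to Adh2 on the chromosome, has no probe set annotated to it here and was not analysed.

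FALDH, on chromosome 2, encodes the glutathione-dependent formaldehyde dehydrogenase, which is also known to break down S-nitrosoglutathione. It had 9368, 8904, 9585 and 8759 in the aromatic bulk, against 7661, 7142, 7509 and 7569.5 in the non-aromatic bulk. Every array of the aromatic bulk was brighter, and the difference was 0.29 (SE 0.0633, adjusted p = 0.00473), or 1.23-fold in the means. In a fit of the bulks alone the adjusted p was 0.0543. In the parents FALDH had 9266, 9594, 9548 and 9838 in Pusa 1121, against 6509.6, 6763, 6441 and 6474 in Pusa 1342. The direction was the same, without overlap, at 0.55 (SE 0.0633, adjusted p = 1.3e-05) and 1.46-fold.

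The order of the FALDH means was Pusa 1121, aromatic bulk, non-aromatic bulk, Pusa 1342. Pusa 1121 and the aromatic bulk were close (-0.06 (adjusted p = 0.597) for the bulk minus the parent, 95% interval -0.20 to 0.07). The non-aromatic bulk was 0.19 above Pusa 1342 (adjusted p = 0.0442), a call that was lost in 15 of the 16 fits that left out an array (adjusted p up to 0.0985), all but that without non-aromatic bulk array 2. The parental difference was 0.25 larger than the bulk difference, which did not pass (adjusted p = 0.0672). These are small differences in a bright gene, whose groups had SDs of 147 to 387 intensity units.

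**Figure D2:**
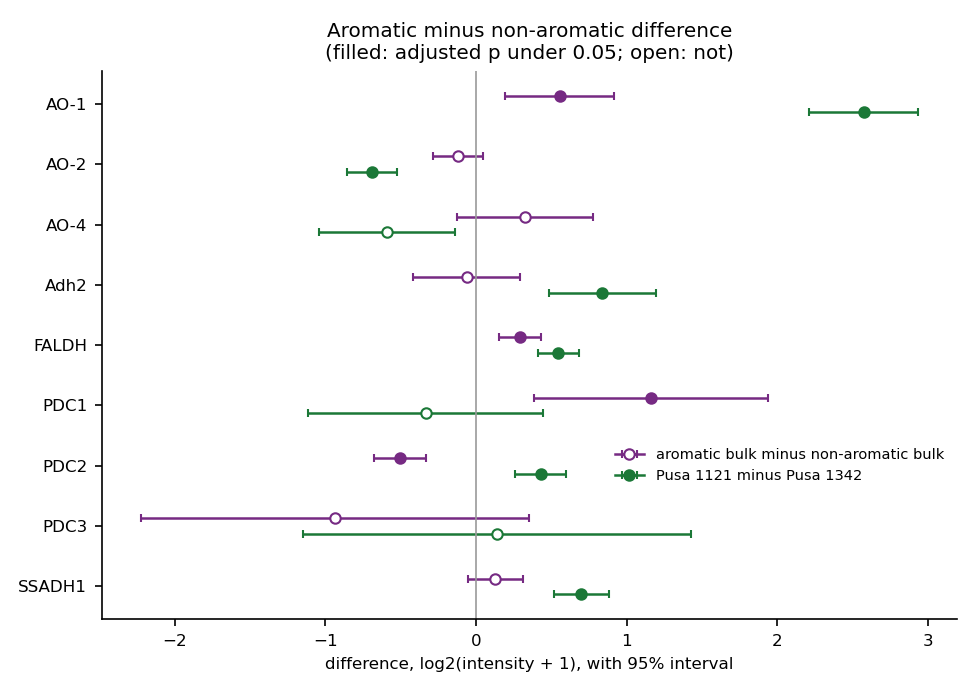
Difference in log2(intensity + 1) with its 95% interval for each of the 9 genes, aromatic bulk minus non-aromatic bulk (purple) and Pusa 1121 minus Pusa 1342 (green); filled points passed an adjusted p of 0.05. AO-1 and FALDH lie right of 0 in both, while PDC2 lies left of it between the bulks (-0.51) and right of it between the parents (0.43).

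AO-1, on chromosome 10, had the largest parental difference of the 9 genes; it encodes an aldehyde oxidase, an enzyme that needs the molybdenum cofactor. Its intensities were 578, 763, 637 and 634 in Pusa 1121, against 94.0, 124, 115 and 103 in Pusa 1342. The parents were far apart, 5.99-fold in the means, with a difference of 2.57 (SE 0.167, adjusted p = 3.86e-08). The bulks were closer, with 551, 411, 393 and 334 in the aromatic bulk, against 318, 273, 221 and 329.7 in the non-aromatic bulk. Each aromatic array was above each non-aromatic one, the nearest being 334 and 329.7, and the difference was 0.56 (SE 0.167, adjusted p = 0.0329). That call was lost without aromatic bulk array 1, 2 or 3 or non-aromatic bulk array 2 or 3 (adjusted p from 0.0532 to 0.0977) and in a fit of the bulks alone (adjusted p = 0.121).

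All neighbours in the order of the AO-1 means, Pusa 1121, aromatic bulk, non-aromatic bulk and Pusa 1342, differed past the threshold, and AO-1 alone of the 9 genes had this. The aromatic bulk fell by 0.65 against Pusa 1121 (adjusted p = 0.0142), and the non-aromatic bulk rose by 1.37 against Pusa 1342 (adjusted p = 3.18e-05). On the log2 scale the non-aromatic bulk was 0.08 and the aromatic bulk 0.64 above the mean of the parents. The parental difference was 2.02 larger than the bulk difference (95% interval 1.51 to 2.53, adjusted p = 2.81e-05).

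AO-2, the aldehyde oxidase gene on chromosome 3, ran the other way in the parents. It had 3095, 3075, 3553 and 3001 in Pusa 1121, against 5160.3, 4847, 5207 and 5299 in Pusa 1342. Each array of Pusa 1121 was dimmer, and the difference was -0.69 (SE 0.0765, adjusted p = 8.29e-06). In the bulks the intensities were 4542, 4424, 4153 and 4563 in the aromatic bulk, against 5040.0, 4673, 4974 and 4555 in the non-aromatic bulk. Here the ranges overlapped at their edges and the difference was -0.12 (adjusted p = 0.338), with a 95% interval of -0.29 to 0.04.

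The aromatic bulk had more AO-2 signal than its parent Pusa 1121, by 0.48 (adjusted p = 0.000445), and every one of its arrays was above every array of that parent. The non-aromatic bulk was -0.09 from Pusa 1342 (adjusted p = 0.462). In the order Pusa 1342, non-aromatic bulk, aromatic bulk, Pusa 1121, only the last step was called. The parental difference minus the bulk difference was -0.57 (adjusted p = 0.00168). Pusa 1121 array 3, at 3553, stood above the other arrays of its group, and the parental call held without it. AO-3, the gene next to AO-2 in the gene order, has no probe set annotated to it here.

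AO-4, the aldehyde oxidase gene on chromosome 7, was dim, and its probe sets disagreed; the suffix of the brightest marks probes shared with other sequences. Through the brightest of them it gave 139, 154, 164 and 115 in the aromatic bulk, against 78.6, 128, 117 and 139 in the non-aromatic bulk, which overlapped (difference 0.33 (adjusted p = 0.35)). In Pusa 1121 it gave 126, 75.3, 130.0 and 121, against 172, 193, 171 and 138 in Pusa 1342. The parents did not overlap, but the difference of -0.59 (SE 0.209, adjusted p = 0.0528) missed the threshold. The parental difference minus the bulk difference was -0.92 (adjusted p = 0.0438), a call lost in 10 of the 16 fits that left out an array, with adjusted p up to 0.0861. These were the fits without aromatic bulk array 1, 2 or 3, non-aromatic bulk array 1 or 3, Pusa 1121 array 2 or 4, or Pusa 1342 array 1, 2 or 3.

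On the second brightest probe set, annotated to the same cDNA as the brightest, the same quantity was -0.90 (adjusted p = 0.383). The remaining probe sets ran the other way, at 2.80 (adjusted p = 0.151) on the third and 3.06 (adjusted p = 0.206) on the dimmest. Between the bulks, the third had 35.5, 47.3, 1.36 and 21.8 in the aromatic bulk and 82.3, 52.2, 47.0 and 52.4 in the non-aromatic bulk, against an array median of 64.2. No direction is therefore given for AO-4, and its order of groups, Pusa 1342, aromatic bulk, non-aromatic bulk and Pusa 1121, held no step that was called.

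**Figure D3:**
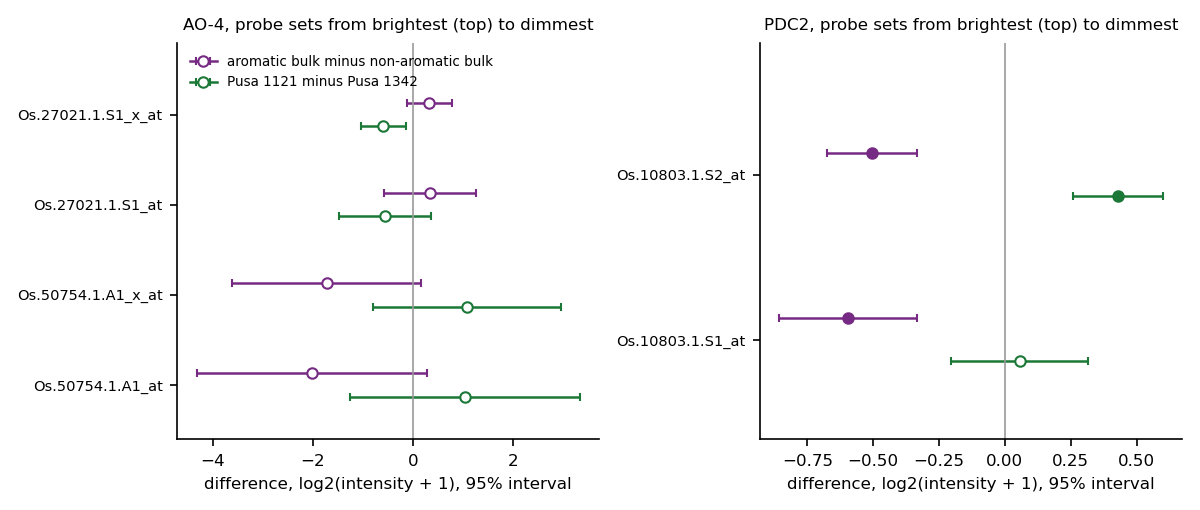
Differences in log2(intensity + 1) with 95% intervals on the 4 probe sets of AO-4 (left) and the 2 of PDC2 (right), brightest at the top; purple is aromatic bulk minus non-aromatic bulk, green is Pusa 1121 minus Pusa 1342, and filled points passed. The AO-4 probe sets lie on both sides of 0, whereas both PDC2 probe sets put the aromatic bulk lower, at -0.51 and -0.60.

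SSADH1, also listed as ALDH5F1 and on chromosome 2, encodes the last enzyme of the GABA shunt. It had 3225, 3101, 3014 and 3599 in Pusa 1121, against 1966, 1961, 1909 and 2117 in Pusa 1342. Every array of Pusa 1121 was brighter, by 0.70 (SE 0.0850, adjusted p = 2.01e-05) and 1.63-fold in the means. In the bulks it had 2499, 2408, 2309 and 2768 in the aromatic bulk, against 2141, 2407, 2375 and 2201 in the non-aromatic bulk. These overlapped, and the difference was 0.13 (adjusted p = 0.367), with a 95% interval of -0.05 to 0.31, whose upper end is below the parental estimate.

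Both bulks lay between the parents in SSADH1. The aromatic bulk fell by 0.37 against Pusa 1121 (adjusted p = 0.00619) and stood 0.33 above Pusa 1342 (adjusted p = 0.0114). The non-aromatic bulk did not overlap with Pusa 1342, yet its difference of 0.20 did not pass (adjusted p = 0.122). The order of the means was Pusa 1121, aromatic bulk, non-aromatic bulk, Pusa 1342, in which only the first step was called. The parental difference was 0.57 (adjusted p = 0.00355) larger than the bulk difference.

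Set against their own parents, AO-1 and PDC2 were called in both bulks, as falls in the aromatic and rises in the other. The PDC2 rise was called on its brighter probe set only, and the dimmer one gave -0.20 (adjusted p = 0.28). In the aromatic bulk against Pusa 1121, AO-2 rose and AO-1, PDC2 and SSADH1 fell, 4 of the 9 genes (44.4%), beside 33.0% of all genes. Higher calls were 17.0% and lower calls 16.0% of all genes in that comparison. In the non-aromatic bulk against Pusa 1342, AO-1, Adh2, FALDH, PDC2 and PDC3 rose and no gene of the 9 fell, 5 of 9 (55.6%), beside 38.8% of all genes, with 19.6% called higher and 19.2% lower. The arrays did not overlap for 5 of the 9 genes in the first of these comparisons, beside 42.1% of all genes, and for 6 in the second, beside 46.0%. Leaving out an array brought the second count to as few as 3, without non-aromatic bulk array 1 or 3 or Pusa 1342 array 2 or 4. These comparisons share the bulks and parents with those above, so they are other views of the same arrays.

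The signed parental difference differed from the signed bulk difference in 6 of the 9 genes (66.7%), AO-1, AO-2, AO-4, Adh2, PDC2 and SSADH1, beside 33.8% of all genes. In AO-1, Adh2, PDC2 and SSADH1 the parental difference was the more positive (16.4% of all genes were called in that direction), and in AO-2 the more negative (17.3%). AO-4 was counted through its brightest probe set alone, and its call was lost in 10 of 16 fits without an array and in 4 of 9 under other settings. For PDC2 the call came with opposite signs and similar sizes on the brighter probe set, -0.51 between the bulks and 0.43 between the parents. On the dimmer one the parental difference was 0.06 (adjusted p = 0.82), so the opposite signs were not called there. The parental minus bulk difference was called on that probe set too, at 0.65 (adjusted p = 0.0149). By their means both bulks lay between the parents for AO-1, AO-2, AO-4, FALDH and SSADH1, and above both for Adh2 and PDC3. For PDC1 the aromatic bulk lay above both parents and the non-aromatic bulk below both, without a call against either parent.

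**Figure D4:**
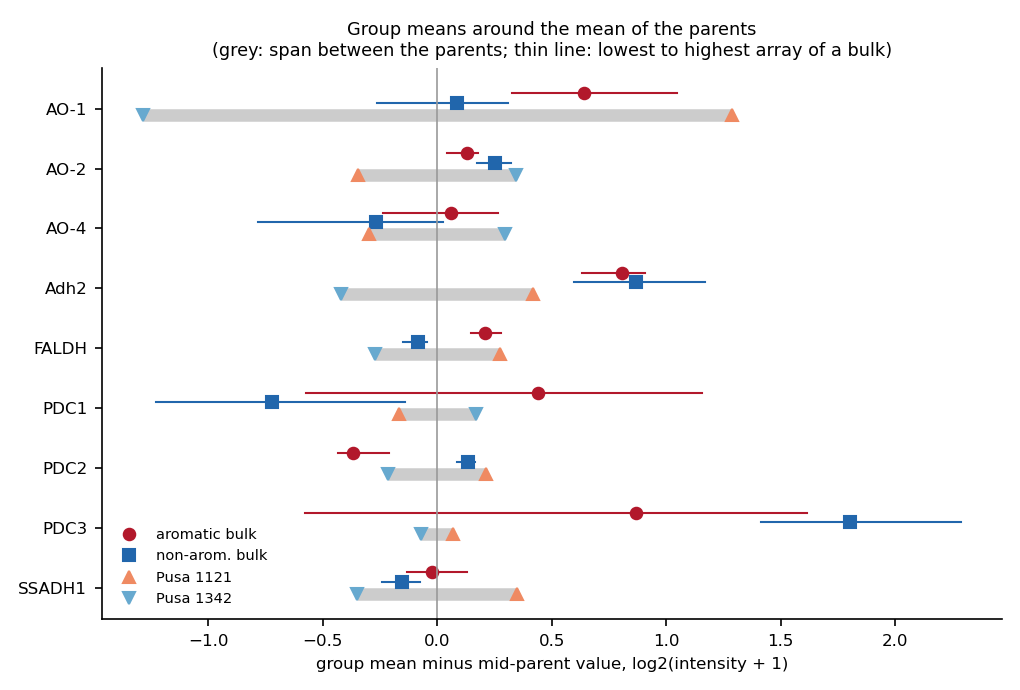
Mean log2(intensity + 1) of each group minus the mean of the parents, per gene; the grey bar spans the parents, and thin lines run over the arrays of each bulk. Both bulks fall inside the grey bar for AO-1, AO-2, AO-4, FALDH and SSADH1, and both stand right of it for Adh2, at 0.81 and 0.87.

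Related genes were read from 6 lists by symbol, with 30 genes measured beside the 9. Among molybdenum enzymes and genes of their cofactor, only nitrate reductase NIA1 and xanthine dehydrogenase XDH had a matched probe set. NIA1, a molybdenum enzyme that reduces nitrate, was lower on both aromatic sides through its brightest probe set. It averaged 7182 ± 188 in the aromatic bulk and 19384 ± 314 in the non-aromatic bulk (SD, n = 4 each; difference -1.43 (adjusted p = 9.71e-09)), and 2436 ± 159 in Pusa 1121 and 17523 ± 452 in Pusa 1342 (difference -2.85 (adjusted p = 2.69e-12)). A dim further probe set of NIA1 was not called in either comparison, and averaging both probe sets ended the call between the bulks (-0.58 (adjusted p = 0.203)) but not that between the parents (-1.71 (adjusted p = 0.000331)). XDH rose in Pusa 1121 by 0.23 (adjusted p = 0.0144), and between the bulks it gave -0.02 (adjusted p = 0.869).

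Of 11 measured genes of fermentation, sugar supply and low oxygen, the bulk comparison called 2 higher, 1 lower and 8 not (median difference 0.20), and the parental comparison called 1 higher, 6 lower and 4 not (median -0.35). These are 27.3% called between the bulks, beside 32.8% of all genes, and 63.6% between the parents, beside 45.3%. SUS1, a sucrose synthase, fell between the bulks, with 159 ± 33.1 in the aromatic bulk and 519 ± 25.7 in the non-aromatic bulk (-1.72 (adjusted p = 5.39e-06)), a fall that its further probe set shared (adjusted p = 0.000344). SUS2, another sucrose synthase, was called in opposite directions, giving 0.34 (adjusted p = 0.00168) between the bulks and -0.35 (adjusted p = 0.000597) between the parents. TPP7, a trehalose phosphate phosphatase known in rice for germination under water, rose by 0.40 (adjusted p = 0.00202) between the bulks and 0.64 (adjusted p = 1.87e-05) between the parents, but not when averaged with a dim further probe set. PPDKB, a pyruvate orthophosphate dikinase, fell in the parents (-0.50 (adjusted p = 4.53e-05)). MYBS2, a MYB factor that acts on sugar-responsive genes, fell in the parents on its brightest probe set (-0.78 (adjusted p = 2.65e-07)) and rose there on another (1.00 (adjusted p = 1.3e-07)). On its dimmest probe set MYBS2 fell there too (-2.03 (adjusted p = 2.82e-05)).

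All 4 genes listed with the aldehyde dehydrogenases, BADH1, BADH2 and the proline synthesis genes P5CS1 and P5CS2, fell between the parents, P5CS2 not when its probe sets were averaged (0.27), and 1 rose and 1 fell between the bulks. Of all genes 45.3% were called between the parents, 22.8% as lower. Between the bulks 50.0% of this list was called, beside 32.8% of all genes. P5CS1 was called in opposite directions, at 0.26 (adjusted p = 0.0103) between the bulks and -1.45 (adjusted p = 6.86e-10) between the parents. Its bulk call was lost in a fit of the bulks alone (adjusted p = 0.078), which left 1 gene of this list called. BADH2, the fragrance gene, gave a difference of -0.99 between the bulks and -2.69 between the parents, both called, in the same samples in which SSADH1, an enzyme of the same superfamily, gave 0.13 and 0.70. The GABA shunt list had 4 measured genes, OSL2 and the glutamate dehydrogenases GDH1, GDH2 and GDH3, which are not steps of the shunt itself. In each comparison 25.0% of this list was called, beside 32.8% of all genes between the bulks and 45.3% between the parents. GDH1 fell between the bulks, with 456 ± 6.49 in the aromatic bulk and 714 ± 41.0 in the non-aromatic bulk (-0.64 (adjusted p = 0.000244)). OSL2, a GABA transaminase, whose reaction yields succinic semialdehyde, rose between the parents, with 2382 ± 35.2 in Pusa 1121 and 2011 ± 40.5 in Pusa 1342 (0.24 (adjusted p = 0.00961)). The other genes of the GABA shunt list did not pass in those comparisons, and GLYI-11, the one gene measured of the list on glyoxalase and one-carbon metabolism, passed in neither.

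Among 8 cinnamyl alcohol dehydrogenases and cinnamoyl reductases, which reduce aromatic aldehydes on the way to lignin, the bulk comparison called 2 higher and 6 not, and the parental comparison called 3 higher, 2 lower and 3 not. The shares called were 25.0% between the bulks, beside 32.8% of all genes, and 62.5% between the parents, beside 45.3%. CAD6 was called in opposite directions. It averaged 407 ± 48.7 in the aromatic bulk and 167 ± 32.5 in the non-aromatic bulk (1.29 (adjusted p = 1.39e-05)), and 155 ± 19.3 in Pusa 1121 and 276 ± 15.7 in Pusa 1342 (-0.83 (adjusted p = 0.000331)). CAD2, the main enzyme of rice stem lignin, rose in Pusa 1121 (1.34 (adjusted p = 5.26e-09)) and gave -0.11 (adjusted p = 0.385) in the bulks. CAD3 fell in Pusa 1121 (-0.57 (adjusted p = 9.82e-06)). CAD8C rose in both, by 0.33 (adjusted p = 0.0353) and 0.52 (adjusted p = 0.00119), but not when averaged with a dim further probe set, and the bulk call was lost in 7 of the 16 fits without an array: those without aromatic bulk array 1, 2 or 4 or any 1 array of the non-aromatic bulk (adjusted p up to 0.0905).

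**Figure D5:**
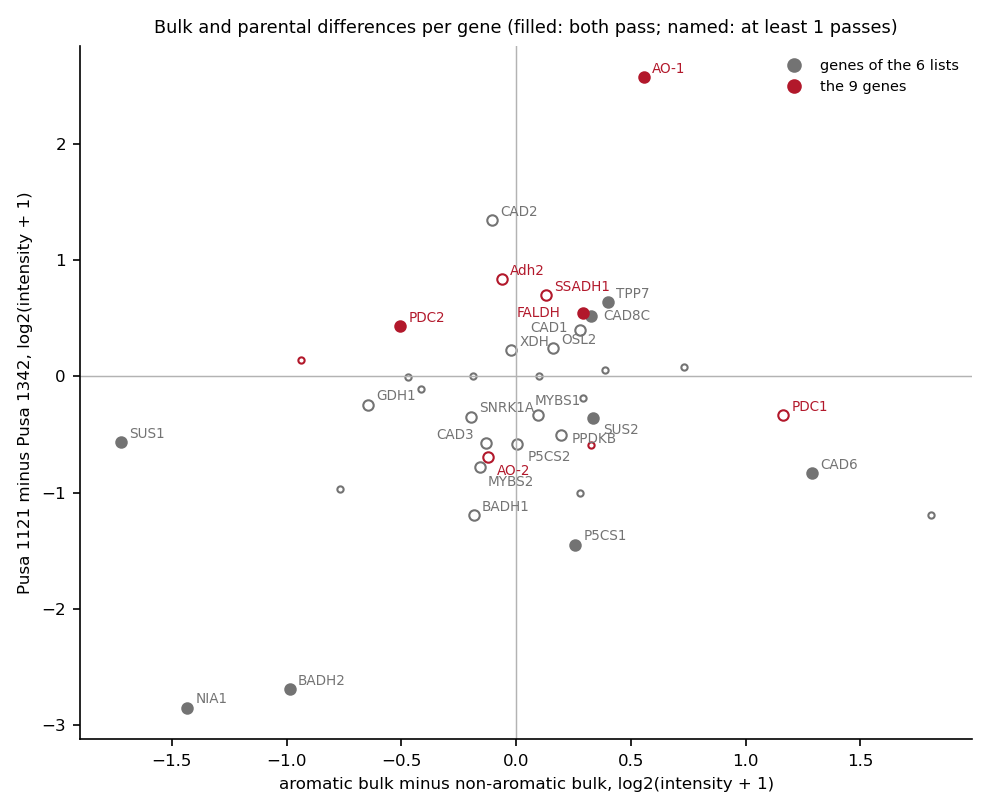
Aromatic bulk minus non-aromatic bulk (x axis) and Pusa 1121 minus Pusa 1342 (y axis), both in log2(intensity + 1), for the 9 genes (red) and 30 genes of the lists (grey); filled points passed in both comparisons, larger named points in at least 1. PDC2 lies at upper left (-0.51, 0.43), CAD6 at lower right (1.29, -0.83) and AO-1 at the top (2.57 in the parents).

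Among 2061 brighter genes with a published name (2062 for PDC1), those most like each of the 9 in level were found by Pearson's r over the 16 arrays, which mostly follows the 4 group means. For AO-1 these were COPT5.1 (r = 0.981) and PLD2 (0.971), for AO-2 CFBP1 (0.972) and OsrcaA1 (0.967), and for AO-4 CPS1 (0.784) and OsPP2C16 (0.771). OsrcaA1 is the same gene and probe set as the leaf marker RCA. Adh2 was most like OST48 (0.948) and FTSH6 (0.944), and FALDH most like CSase and osysl16 (0.97 each). The decarboxylase PDC2 was most like DRR2 (0.956) and JMJ706 (0.952), PDC1 most like DTH8 (0.824) and fie (0.688), and PDC3 most like DRB5 (0.820) and HAK16 (0.750). SSADH1 was most like ILL5 (0.963) and Melibiase (0.954). With group means removed, r ran from 0.119 for FALDH with CSase to 0.843 for PDC2 with JMJ706.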

How the data were processed

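Per the labels, total RNA of leaves was prepared with a Qiagen kit, labelled with biotin and hybridised. The authors deposited 1 linear intensity per probe set and array, with the same distribution on every array (read from the values); GCOS 1.2 and RMA are named in the submitters' processing notes, with no role or order, and the genome build is not given in the sources used here. Of 57381 rows, 187 controls were left out. Gene names came from the platform annotation, updated with the gene table of assembly ASM3414082v1; 22436 probe sets had 1 gene, 95 several and 34663 none listed here. Of the list symbols, 6 belonged to unrelated genes and were dropped.

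On log2(value + 1), the 4 group means were estimated in a single model by limma's lmFit and eBayes (version 3.58.1, R 4.3.3; 12 residual degrees of freedom). All p-values are two-sided and were adjusted by the Benjamini-Hochberg method over 57194 probe sets. The steps were tested on simulated data, where recovery was required only of the largest planted differences in brighter probe sets. Recovery of small differences, or of any in dim probe sets, was not required there. Samples were grouped by their labels. The genes and lists were chosen with earlier results of these data known; all 9 genes are named, and from each list up to 4 called genes per comparison with the smallest adjusted p, plus the 2 most alike named genes per gene. Precision is limited by the 4 arrays per group: residuals had a median SD of 1.09 log2 units among dimmer probe sets and 0.196 among brighter ones. Alternatives covered the pseudocount, normalization, filter, prior, array weights, samples in the fit, replicate block, probe sets and each array left out.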

Additional observations from a re-analysis of the deposited data

Results flagged for a closer look

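Of 36 sets of 4 arrays checked for the 9 genes, 3 had an array far from the others, and chance gives about 1 in 20. AO-2 was 3553 in Pusa 1121 array 3, with the others from 3001 to 3095. AO-4 was 75.3 in Pusa 1121 array 2, with the others from 121 to 130.0. PDC2 was 3052 in aromatic bulk array 1, with the others from 2619.7 to 2669. Among list genes, MYBS2 was 13846 in Pusa 1342 array 2, with the others from 13017 to 13084.

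The parental difference (Pusa 1121 minus Pusa 1342) was not equal to the bulk difference (aromatic minus non-aromatic) for 6 of the 9 genes by the test of the difference itself, beside 33.8% of all genes. It was more positive by 2.02 for AO-1, 0.93 for PDC2, 0.90 for Adh2 and 0.57 for SSADH1, and more negative for AO-2 (-0.57), on the log2 scale. AO-4 gave -0.92 on its brightest probe set, a call lost in 10 of 16 fits without an array, and 1.01 with its probe sets averaged, so it has no settled direction. Among the named list genes the parental difference was more positive by 1.45 for CAD2 and 1.16 for SUS1. It was more negative for CAD6 (-2.12), P5CS1 (-1.70), BADH2 (-1.70), NIA1 (-1.42), BADH1 (-1.01), PPDKB (-0.70), SUS2 (-0.69) and CAD3 (-0.44). NIA1 lost this call with its probe sets averaged (adjusted p = 0.0684). For SUS1 both differences were negative, -0.57 between the parents and -1.72 between the bulks. The further probe set of SUS1 gave 0.44 for the parental minus bulk difference, which was not called (adjusted p = 0.205). MYBS2 gave -0.62 on its brightest probe set, 1.16 (adjusted p = 2.08e-06) on another and -2.57 (adjusted p = 0.000142) on its dimmest.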

How the results depend on the processing

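Counts of called probe sets stayed within 1.5 times of 10634 (bulks), 14777 (parents), 11081 (difference), 10624 (aromatic bulk against Pusa 1121) and 13514 (non-aromatic bulk against Pusa 1342) in all 129 counts under the alternatives. Same-numbered arrays of different groups hardly deviated together (r from -0.0254 to 0.0335 over 24 pairs). The best match of an array among the 4 arrays of another group had its own number in 10 of 24 cases. Values this low neither show nor exclude a pairing by number. With the replicate block the counts were 9636, 14040, 10147, 9715 and 12708. The count of the 9 genes called between the bulks moved from 4 to 1 in a fit of those groups alone, and to 2 with the block or without aromatic bulk array 1 or 3 or non-aromatic bulk array 3. That of the non-aromatic bulk against Pusa 1342 moved between 3 and 7, against 5. Among the lists, fermentation genes called between the bulks numbered 6 with brighter probe sets only or a trended prior, against 3, and cinnamyl alcohol dehydrogenases 1 to 4, against 2. Genes of the GABA shunt list called between the parents numbered 0 to 2, against 1. Some called values turned sign. For the AO-4 difference, averaging its probe sets gave 1.01, and its dimmest ones 2.80 and 3.06. PDC2 in the non-aromatic bulk against Pusa 1342 gave -0.20 on its dimmer probe set. Averaging probe sets gave -0.040 for CAD8C, 0.27 for P5CS2 and -0.57 for TPP7 in the parents, and -0.024 for TPP7 in the bulks. Single further probe sets in the parents gave 1.00 for MYBS2, -1.77 for TPP7 and -0.60 for CAD8C, up to 1.84 for P5CS2, and in the bulks 0.27 for NIA1 and -0.45 for TPP7. The cause was not tested. Of 1121 values of the 9 genes under alternatives other than a single further probe set, 1039 kept direction and side of the threshold. Dim genes (PDC1, PDC3, AO-4) have the widest intervals.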
